A study of Mus musculus with 12 samples.

Results

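Fatty acid oxidation genes were followed across regulatory T (Treg) cells of 4 genotypes. The list held 34 genes: the enzymes and carriers that take a long-chain fatty acid from the cytosol through mitochondrial and peroxisomal β-oxidation, the flavoproteins that receive its electrons, and nuclear receptors and coactivators that act on these genes. A gene was taken from the 1 transcript cluster, the unit that the array measures, that the platform annotation assigns to its symbol alone. This gave 32 of the 34 genes, each with exactly 1 transcript cluster, out of 22180 genes measured in the same way. Acsl1 had no transcript cluster named for it and that of Acsl3 carried a second symbol, so neither is described.

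RNA came from sorted CD4+YFP+ Treg cells of spleen and lymph nodes, hybridized to Affymetrix Mouse Genome 2.0 arrays, with 3 arrays for each genotype. Foxp3Cre/+ and Foxp3Cre/+Lkb1f/f mice are labelled female, and Foxp3Cre and Foxp3CreTgfbr2f/f mice are labelled male. All 4 carry the YFP-Cre fusion in Foxp3, which deletes a floxed gene in cells that use this allele, so the Cre allele is shared by knockouts and controls. Foxp3 is X-linked, and heterozygous Foxp3Cre/+ females also keep Treg cells with the intact allele, outside the YFP+ gate. No source used here states the ages, or whether an array holds 1 mouse or a pool. The comparison in females asks what the loss of Lkb1, a kinase that acts upstream of AMP-activated protein kinase (AMPK), does to Treg cell transcripts, and the comparison in males asks the same of TGF-β receptor II. The sample titles call the replicates biological without describing them further. P values measure only the scatter among arrays with the same genotype label.

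β-oxidation shortens an acyl-CoA by repeated rounds of dehydrogenation, hydration, a further dehydrogenation and thiolysis. Entry into mitochondria is set by the carnitine shuttle, whose first enzyme, carnitine palmitoyltransferase 1 (Cpt1), is inhibited by malonyl-CoA. AMPK lowers malonyl-CoA and thereby opens this entry, and Treg cells are known for drawing on fatty acid oxidation more than effector T cells do. The paper, however, saw no clear loss of AMPK activity in Treg cells of Foxp3CreLkb1f/f mice. It also found Treg cells without AMPKα to be free of adverse changes. A part of AMPK in the transcript levels below was not tested.

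Levels are log2 values minus the median of the same array. The arrays formed 2 sets. The deposited median was 5.48 to 5.60 on the 8 lower-intensity arrays, which are 2 of each genotype. It was 6.30 to 6.33 on the 4 higher-intensity arrays, 1 of each genotype. The higher-intensity arrays were Foxp3Cre/+ replicate 3, Foxp3Cre/+Lkb1f/f replicate 3, Foxp3Cre replicate 3 and Foxp3CreTgfbr2f/f replicate 1. All 4 of them went against their labelled sex. The Y-linked gene Eif2s3y lay 3.11 and 3.00 above the median on those labelled female, and Xist lay 4.54 and 4.70 above it on those labelled male. Xist lay below the median on both arrays labelled female. As Foxp3 is X-linked, the heterozygous Foxp3Cre/+ genotype belongs to females, so these 2 arrays do not match their named genotype. Means, intervals and counts over all arrays of the Lkb1 comparison include them and compare labels, not established genotypes. Below, a genotype name stands for the label, and a direction holds for the arrays as labelled. Differences are also given within the lower-intensity arrays, which leaves out the 4 higher-intensity arrays. The targeted gene Stk11, which encodes Lkb1, lay at 2.96, 2.90 and 3.15 on the Foxp3Cre/+ arrays and 2.68, 2.33 and 3.27 on the Foxp3Cre/+Lkb1f/f arrays, and Tgfbr2 at 3.04, 2.71 and 3.48 on the Foxp3Cre arrays and 3.55, 2.51 and 2.31 on the Foxp3CreTgfbr2f/f arrays. Over all arrays both overlapped between knockout and control. Within the lower-intensity arrays each was lower in its own knockout without overlap. Between the higher-intensity arrays the other gene was lower in the knockout. Tgfbr2 lay at 3.25 on Foxp3Cre/+ replicate 3 and 2.71 on Foxp3Cre/+Lkb1f/f replicate 3. Stk11 lay at 3.05 on Foxp3Cre replicate 3 and 2.78 on Foxp3CreTgfbr2f/f replicate 1. On the lower-intensity arrays these crosswise values overlapped. Whether labels were exchanged was not tested, and whether the probes lie in the deleted exons is not given. Foxp3 lay between 5.59 and 5.88 on all 12 arrays and Il2ra, the CD25 gene, between 5.82 and 6.40, so the defining Treg transcripts were high on every array. The mean of 14 macrophage and monocyte markers lay between 0.44 and 3.83 on the Foxp3Cre/+ arrays, highest on replicate 2, between 0.63 and 1.44 on the Foxp3Cre/+Lkb1f/f arrays, and was -0.21 to 0.34 across the Foxp3Cre and Foxp3CreTgfbr2f/f arrays. The mean of 7 B-cell markers was highest on both replicate 3 arrays of the female comparison, at 1.75 and 0.96.

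Most of the fatty acid oxidation genes lay above the array median. Of the 32 genes 30 had a mean above it, against 11844 of all 22180 genes, and only Ppara and Ppargc1a lay below it. A level above the median does not by itself show detection, and Cpt1c and Ehhadh lay close to it, each at 0.18. The windows of the listed genes just before the transcription start were searched on both strands for AGGTCA. This is the half-site that receptors of the PPAR and ERR families are known to bind. RefSeq promoter windows of build GRCm38.p6, 250 bases before to 50 after the start, were given for 30 of the 34 listed genes. AGGTCA occurred in 5 of these 30 genes (16.7%) and in 16.3% of all 32851 windows, a similar share. A gene can have more than 1 window and each listed gene was counted once, so the background is a share of windows and not of genes. The extended form AAGGTCA, which contains AGGTCA, occurred in 1 of the 30 and in 4.72% of all windows, and a direct repeat of AGGTCA with 1 base between in 0 of the 30 and in 0.0396% of all windows. The matches are shown because they include the entry enzyme Cpt1a, with up to 10 bases on each side, read 5′ to 3′ on the strand of the gene, and capitals mark the half-site or its reverse complement:
Cpt1a, chr19:3323197-3323222, 94 bases before the start: gtttccttacTGACCTcctccccgca
Cpt1c, chr7:44974982-44975007, 146 bases before the start: gcagggagggAGGTCAaggctgtttc
Acadvl, chr11:70015500-70015525, 87 bases before the start: ggatcaccctAGGTCAggtagaatac
Echs1, chr7:140116489-140116514, 83 bases before the start: cagcccgctcAGGTCAcgggtccacc
Acadm, chr3:153944877-153944893, 249 bases before the start: gTGACCTtcgggctccg
Cpt1a lies on the + strand and the other 4 on the - strand. The match in Acadm is the extended form on the opposite strand, at the edge of the window.

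The whole window of Cpt1a (chr19:3323051-3323350, + strand) is printed because this gene separated the Lkb1 genotypes most clearly, as described next, with the half-site in capitals:
Cpt1a: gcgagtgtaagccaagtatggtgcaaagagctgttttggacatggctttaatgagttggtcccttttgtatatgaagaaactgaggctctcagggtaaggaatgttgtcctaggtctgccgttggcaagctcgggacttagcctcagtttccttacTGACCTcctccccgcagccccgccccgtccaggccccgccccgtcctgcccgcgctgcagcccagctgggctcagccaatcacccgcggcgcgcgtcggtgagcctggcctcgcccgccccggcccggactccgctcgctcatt

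Treg cells labelled Foxp3Cre/+Lkb1f/f had lower Cpt1a than Foxp3Cre/+ cells on every array. The means over all arrays differed by less than 1.5-fold, and those of the lower-intensity arrays by more. Most of the other oxidation genes had a slightly lower mean. Cpt1a, the liver form of carnitine palmitoyltransferase 1 and the gate of mitochondrial fatty acid entry (transcript cluster 17355915), lay at 3.66, 3.65 and 3.50 on the Foxp3Cre/+ arrays and 3.04, 3.00 and 3.08 on the Foxp3Cre/+Lkb1f/f arrays. The highest knockout array was below the lowest control array, as for 2.08% of all genes. The spread within each genotype was small (SD 0.09 and 0.04, n = 3). The difference was -0.56 (standard error 0.15, 95% interval -0.93 to -0.19, limma adjusted p = 1.00), a 1.48-fold lower level, with an unadjusted p = 0.00865. It did not pass the test over all transcript clusters, and the exact permutation test gave p = 0.10, the smallest possible with 3 against 3. The difference was -0.63 in the lower-intensity set (2 against 2 arrays), and the higher-intensity pair gave -0.42. That pair went against its labelled sex, and Tgfbr2 rather than Stk11 was lower in its knockout. Only the lower-intensity arrays matched their labelled sex, and there 16.3% of all genes separated on the lower side. With single arrays left out the Cpt1a difference ranged from -0.61 to -0.54. It was -0.54 without Foxp3Cre/+ replicate 2, the array with the highest macrophage markers. As the groups do not overlap, its sign could not change. The part of macrophages in Cpt1a was not tested. In bulk RNA, less RNA per cell and fewer cells of a type cannot be told apart.

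**Figure D1:**
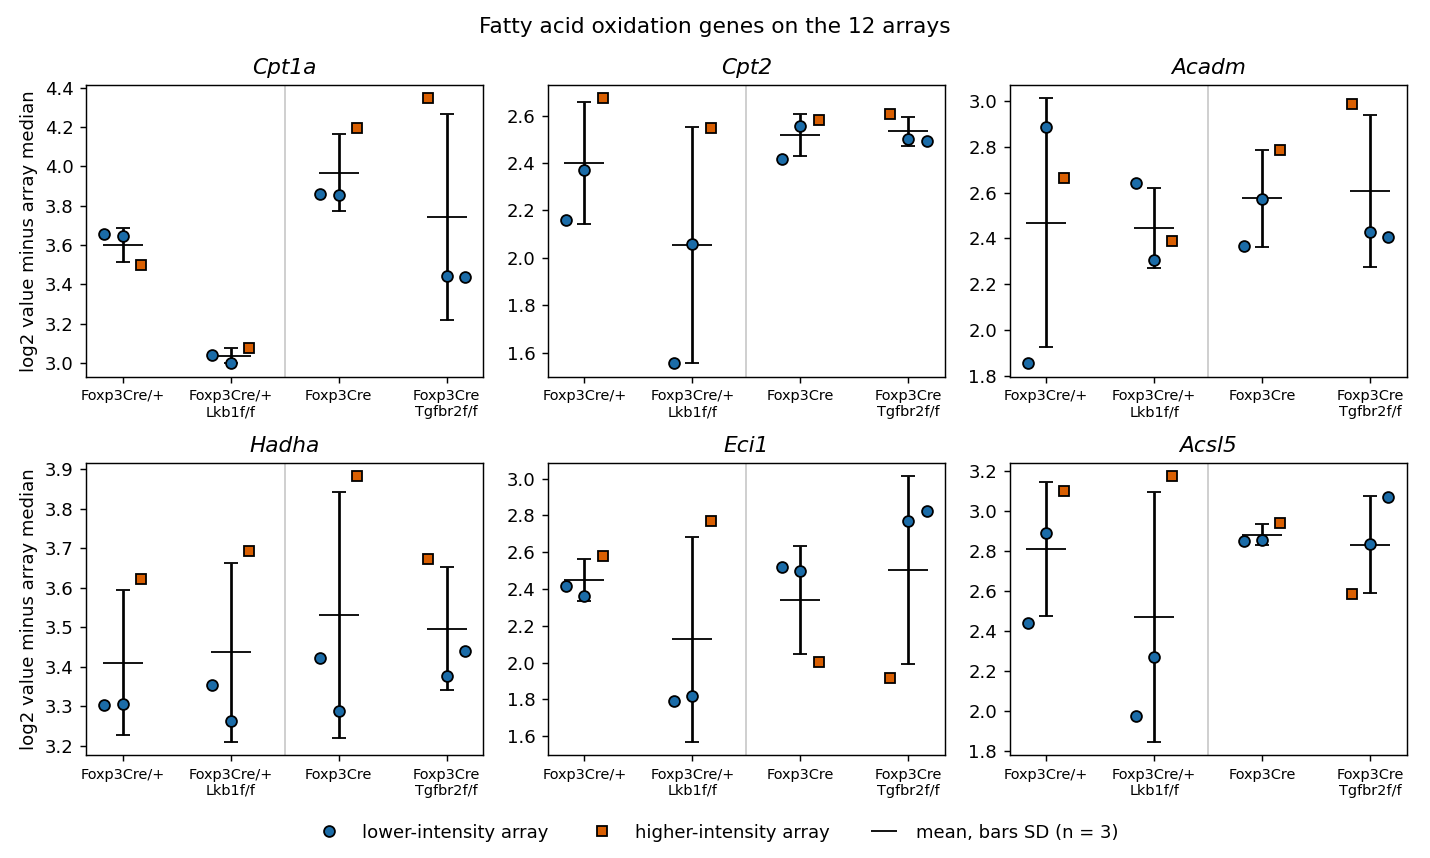
Log2 value minus array median (y axis) of Cpt1a, Cpt2, Acadm, Hadha, Eci1 and Acsl5 on each array, by genotype label (x axis); circles are lower-intensity and squares higher-intensity arrays, the horizontal bar is the mean and the error bars the SD of 3 arrays. Of these 6 genes Cpt1a alone separates Foxp3Cre/+Lkb1f/f (3.00 to 3.08) from Foxp3Cre/+ (3.50 to 3.66) without overlap; Hadha is higher on all 4 higher-intensity arrays than on the other 8.

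The other members of the carnitine shuttle overlapped between the Lkb1 genotypes. Cpt2, which turns acylcarnitine back into acyl-CoA inside the mitochondrion, lay at 2.16, 2.37 and 2.67 on the Foxp3Cre/+ arrays and 1.55, 2.06 and 2.55 on the Foxp3Cre/+Lkb1f/f arrays, with a difference of -0.35 (standard error 0.29, 95% interval -1.03 to 0.34, limma adjusted p = 1.00). Its lowest value was on Foxp3Cre/+Lkb1f/f replicate 1, and the replicate 3 arrays lay close together. Slc25a20, the carnitine-acylcarnitine carrier of the inner membrane, differed by -0.21, and Cpt1c, the neuronal form, by 0.04.

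The acyl-CoA dehydrogenases, which take the first step of each round for chains of different length, had a lower mean in 7 of 7, none past the test and all overlapping. Acadl, the long-chain enzyme, had the largest difference among them, -0.23 (standard error 0.17, 95% interval -0.64 to 0.18, limma adjusted p = 1.00), with levels of 2.41, 2.38 and 2.09 on the Foxp3Cre/+ arrays and 2.12, 2.09 and 1.98 on the Foxp3Cre/+Lkb1f/f arrays. Acadm, the medium-chain enzyme, lay at 1.85, 2.89 and 2.66 on the Foxp3Cre/+ arrays and 2.64, 2.31 and 2.39 on the Foxp3Cre/+Lkb1f/f arrays, and its difference was -0.02 (standard error 0.29, 95% interval -0.72 to 0.67, limma adjusted p = 1.00). The control arrays of Acadm spread more widely than the knockout arrays, from 1.85 to 2.89. For Acadvl, the very-long-chain enzyme, the levels were 1.59, 1.80 and 1.94 on the Foxp3Cre/+ arrays and 1.69, 1.59 and 1.96 on the Foxp3Cre/+Lkb1f/f arrays (difference -0.03, standard error 0.19, 95% interval -0.48 to 0.41, limma adjusted p = 1.00). Acads, the short-chain enzyme, and Acad9, Acad10 and Acad11 differed by -0.05, -0.15, -0.21 and -0.20.

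The enzymes of hydration, the further oxidation and thiolysis had differences between -0.20 and 0.03. Hadha, the α-subunit of the mitochondrial trifunctional protein, lay at 3.30, 3.31 and 3.62 on the Foxp3Cre/+ arrays and 3.35, 3.26 and 3.69 on the Foxp3Cre/+Lkb1f/f arrays, a difference of 0.03 (standard error 0.20, 95% interval -0.44 to 0.49, limma adjusted p = 1.00). Its 2 replicate 3 arrays were above the other 4, among which the genotypes overlapped. Hadh, which oxidizes short- and medium-chain hydroxyacyl-CoA, lay at 3.22, 3.42 and 3.79 on the Foxp3Cre/+ arrays and 2.91, 3.07 and 3.84 on the Foxp3Cre/+Lkb1f/f arrays (difference -0.20, standard error 0.29, 95% interval -0.90 to 0.49, limma adjusted p = 1.00). Echs1, the short-chain enoyl-CoA hydratase, lay at 1.72, 1.91 and 1.88 on the Foxp3Cre/+ arrays and 1.70, 1.56 and 1.83 on the Foxp3Cre/+Lkb1f/f arrays (difference -0.14, standard error 0.17, 95% interval -0.54 to 0.25, limma adjusted p = 1.00). Hadhb, the β-subunit of the trifunctional protein, whose promoter window shares 228 bases with that of Hadha on chromosome 5, differed by -0.09, and the thiolase gene Acaa2 by -0.03.

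Among the auxiliary enzymes for unsaturated fatty acids, Eci1, the enoyl-CoA isomerase of mitochondria, lay at 2.41, 2.36 and 2.58 on the Foxp3Cre/+ arrays and 1.79, 1.82 and 2.77 on the Foxp3Cre/+Lkb1f/f arrays. Replicates 1 and 2 of Foxp3Cre/+Lkb1f/f were below all 3 controls, and replicate 3 was above them. The difference over all arrays was -0.32 (standard error 0.29, 95% interval -1.01 to 0.37, limma adjusted p = 1.00). Within the lower-intensity arrays it was -0.58 (limma adjusted p = 1.00), and between the higher-intensity arrays 0.19. Eci2, Ech1 and the dienoyl-CoA reductase gene Decr1 differed by -0.20, -0.11 and 0.15.

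The peroxisomal genes had lower means in 3 of 3, all overlapping. Acox3, an acyl-CoA oxidase, lay at 1.34, 1.68 and 2.30 on the Foxp3Cre/+ arrays and 1.35, 1.20 and 2.03 on the Foxp3Cre/+Lkb1f/f arrays (difference -0.25, standard error 0.33, 95% interval -1.02 to 0.53, limma adjusted p = 1.00), with the highest value on each side on replicate 3. Ehhadh, the peroxisomal bifunctional enzyme, lay at -0.21, -0.11 and 0.85 on the Foxp3Cre/+ arrays and 0.22, -0.21 and 0.18 on the Foxp3Cre/+Lkb1f/f arrays (difference -0.11, standard error 0.32, 95% interval -0.86 to 0.64, limma adjusted p = 1.00), and the thiolase gene Acaa1a differed by -0.01.

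All 3 genes of electron transfer from the dehydrogenases to the respiratory chain had lower means. Etfb, a subunit of the electron transfer flavoprotein, lay at 3.89, 4.09 and 3.48 on the Foxp3Cre/+ arrays and 3.44, 3.88 and 3.57 on the Foxp3Cre/+Lkb1f/f arrays (difference -0.19, standard error 0.23, 95% interval -0.73 to 0.34, limma adjusted p = 1.00). Replicate 3 of the control lay among the knockout values. Etfdh, the oxidoreductase that passes the electrons to ubiquinone, lay at 2.25, 2.30 and 2.25 on the Foxp3Cre/+ arrays and 2.32, 1.72 and 2.23 on the Foxp3Cre/+Lkb1f/f arrays (difference -0.18, standard error 0.21, 95% interval -0.67 to 0.31, limma adjusted p = 1.00), with 1 low array, replicate 2 of the knockout. Etfa differed by -0.12.

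Of the acyl-CoA synthetases, which activate fatty acids for oxidation or for lipid synthesis, Acsl5 lay at 2.44, 2.89 and 3.10 on the Foxp3Cre/+ arrays and 1.97, 2.27 and 3.17 on the Foxp3Cre/+Lkb1f/f arrays (difference -0.34, standard error 0.35, 95% interval -1.16 to 0.48, limma adjusted p = 1.00). The lowest 2 of the 6 values were on Foxp3Cre/+Lkb1f/f replicates 1 and 2 and the highest on replicate 3 of the same genotype. Acsl4, which prefers arachidonic acid, lay at 2.61, 2.99 and 2.64 on the Foxp3Cre/+ arrays and 3.12, 2.92 and 2.71 on the Foxp3Cre/+Lkb1f/f arrays (difference 0.17, standard error 0.20, 95% interval -0.30 to 0.64, limma adjusted p = 1.00).

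Among the regulators, Ppard, a nuclear receptor for fatty acids, had the largest higher mean of the 32 genes, 0.21 (standard error 0.20, 95% interval -0.26 to 0.67, limma adjusted p = 1.00), with levels of 1.62, 1.60 and 2.06 on the Foxp3Cre/+ arrays and 1.97, 1.84 and 2.09 on the Foxp3Cre/+Lkb1f/f arrays. Ppargc1a, a coactivator of mitochondrial gene expression, lay far below the array median on every array, at -1.85, -1.79 and -1.72 on the Foxp3Cre/+ arrays and -1.78, -1.76 and -1.61 on the Foxp3Cre/+Lkb1f/f arrays (difference 0.07, standard error 0.16, 95% interval -0.30 to 0.45, limma adjusted p = 1.00). Ppara, another fatty acid receptor, and the coactivator gene Ppargc1b differed by -0.16 and -0.19.

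Counted together, 26 of the 32 genes (81.2%) had a lower mean on the Foxp3Cre/+Lkb1f/f arrays, with a median difference of -0.15. The same held for 56.1% of all 22180 genes (median -0.02) and for 66.7% of the 11844 genes above the array median (median -0.06), to which 30 of the 32 belong and of which 25 (83.3%) were lower. Both groups separated without overlap for 1 of the 32, Cpt1a, a share near that of all genes, 2.08% on the lower and 1.61% on the higher side. No gene of the list was past 1.5-fold over all arrays, against 2.25% of all genes. Within the lower-intensity arrays 1 was, Cpt1a, against 4.24% of all genes. Unadjusted p fell under 0.05 for Cpt1a alone, against 1.12% of all transcript clusters. After adjustment limma called 0 of 41345 transcript clusters (0%), with 462 at an unadjusted p under 0.05, and the unpaired test that the methods name for other data also called 0 after Benjamini-Hochberg adjustment, with 675. The intervals of the other 31 genes included 0. They come from a fit without the intensity set, so the step between the sets enters their width. With the set in the fit the standard error of Slc25a20 went from 0.38 to 0.16, and that of Acadm stayed at 0.29. That fit also called 0 transcript clusters.

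**Figure D2:**
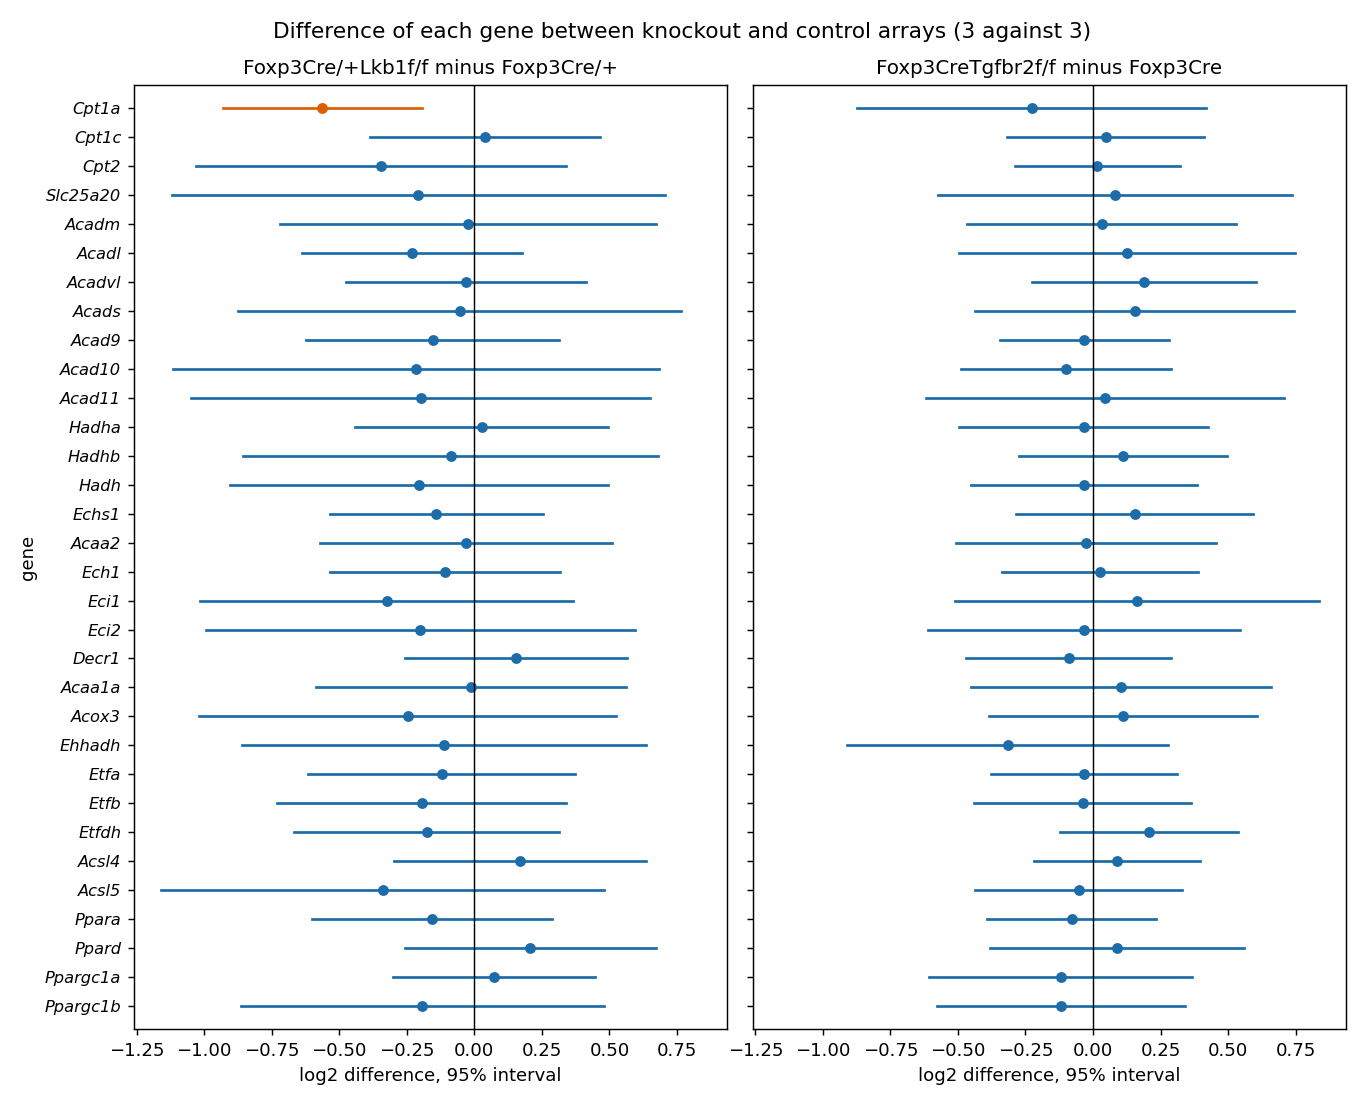
Log2 difference between knockout and control arrays (x axis) for each of the 32 genes (y axis, in order of role), in the Lkb1 comparison (left) and the Tgfbr2 comparison (right); points are differences of means over 3 against 3 arrays and lines are 95% intervals of the limma fit, with genes whose groups do not overlap in orange. In the left panel 26 of 32 points lie below 0 but only the interval of Cpt1a (-0.93 to -0.19) leaves out 0, and in the right panel 15 of 32 lie below 0 and every interval includes it.

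The lower means came mostly from the lower-intensity arrays. There, replicates 1 and 2 of Foxp3Cre/+Lkb1f/f lay below replicates 1 and 2 of Foxp3Cre/+ without overlap for 15 of the 32 genes and above them for 3, against 16.3% and 13.8% of all genes and 20.2% (lower) of the genes above the array median. The mean was lower for 23 of the 32 (median -0.18), against 53.9% of all genes and 64.0% of those above the median. Between the 2 higher-intensity arrays, 16 of the 32 were lower and 16 higher (median -0.0028), against 55.0% of all genes lower. Over both sets 12 of the 32 were lower in each, among them Cpt1a and Cpt2, 11 were lower in the lower-intensity and higher in the higher-intensity set, as Eci1, Eci2 and Acsl5 were, and 5 were higher in each. The count rested on 2 arrays: it was 15 of 32 without Foxp3Cre/+ replicate 3 and 16 without Foxp3Cre/+Lkb1f/f replicate 2, where the sets are also no longer balanced between the genotypes. The macrophage and monocyte markers split by set in the same way. Over all arrays 14 of 14 were lower (median -0.96), within the lower-intensity arrays 13 of 14 (median -1.54), 8 of them without overlap, and between the higher-intensity arrays 4 were lower and 10 higher (median 0.115). Without Foxp3Cre/+ replicate 2, where these markers were highest, the count of oxidation genes was again 26. Foxp3Cre/+ replicate 1 stayed in, with a mean of these markers of 1.48 against 1.06 and 1.44 on replicates 1 and 2 of Foxp3Cre/+Lkb1f/f. The B-cell markers were lower in 7 of 7 over all arrays, in 3 of 7 within the lower-intensity arrays and in 6 of 7 between the higher-intensity arrays. The part of either cell type in the oxidation genes was not tested.

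**Figure D3:**
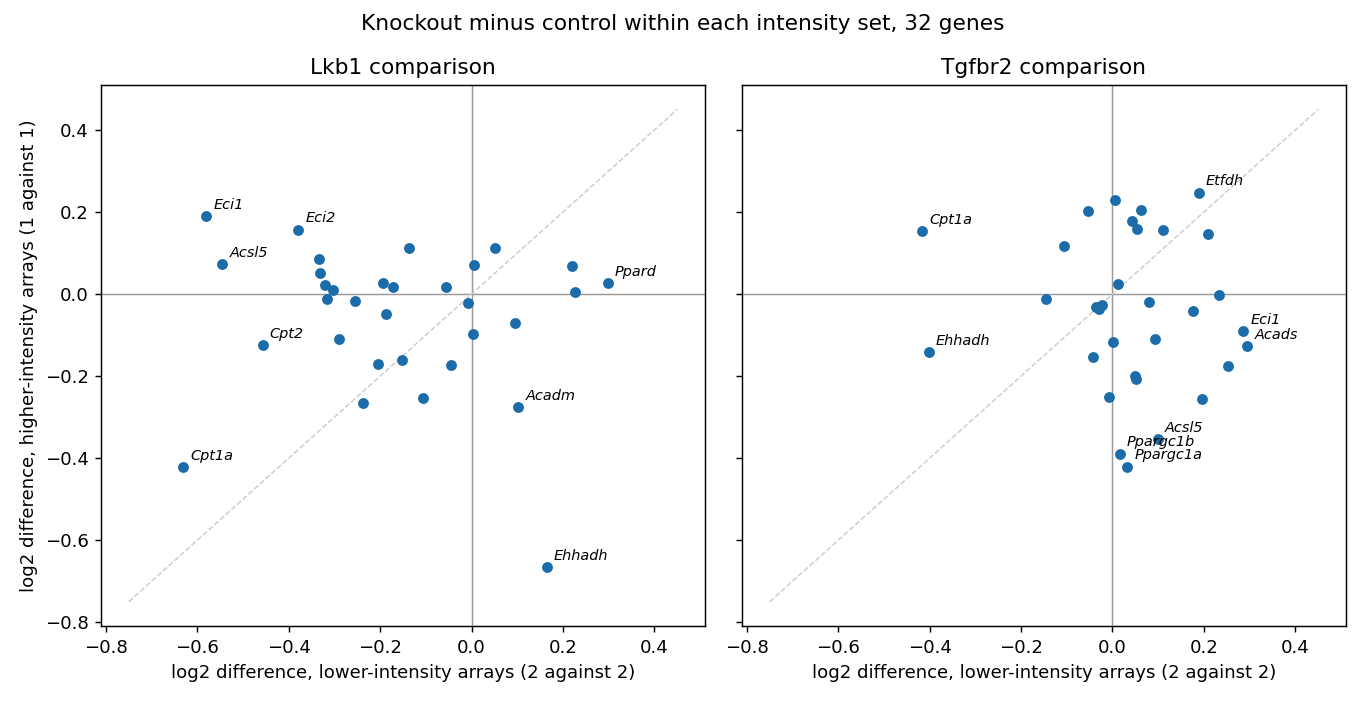
Log2 difference between knockout and control within the lower-intensity arrays (x axis, 2 against 2) and between the higher-intensity arrays (y axis, 1 against 1) for the 32 genes, in the Lkb1 (left) and Tgfbr2 (right) comparisons; the dashed line marks equal differences. In the left panel Cpt1a lies far below 0 on both axes (-0.63 and -0.42), while Eci1 (-0.58 and 0.19) and Acsl5 (-0.55 and 0.07) lie below 0 only on the x axis.

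Treg cells labelled Foxp3CreTgfbr2f/f showed no common direction in these genes. Of the 32, 15 had a lower and 17 a higher mean (median 0.02), against 48.2% lower of all genes and 45.8% of those above the array median. No pair of groups was free of overlap, against 2.27% of all genes lower and 2.37% higher, none was past 1.5-fold, against 0.591%, and every interval included 0. In limma 0 of 41345 transcript clusters (0%) were called in this comparison, with 706 (1.71%) at an unadjusted p under 0.05 and 902 in the unpaired test, which also called 0 after adjustment.

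Cpt1a again had the largest difference of the carnitine shuttle, -0.23 (standard error 0.27, 95% interval -0.87 to 0.42, limma adjusted p = 1.00), but its arrays disagreed. It lay at 3.86, 3.85 and 4.19 on the Foxp3Cre arrays and 4.35, 3.44 and 3.44 on the Foxp3CreTgfbr2f/f arrays. Replicates 2 and 3 of the knockout were below all 3 controls and replicate 1, a higher-intensity array, was above them. Within the lower-intensity arrays the difference was -0.42 (standard error 0.12, limma adjusted p = 0.90). Between the higher-intensity arrays, which went against their labelled sex, it was 0.15. Without Foxp3CreTgfbr2f/f replicate 1 it was -0.53. Cpt2 lay at 2.42, 2.56 and 2.58 on the Foxp3Cre arrays and 2.61, 2.50 and 2.50 on the Foxp3CreTgfbr2f/f arrays (difference 0.02, standard error 0.13, 95% interval -0.29 to 0.32, limma adjusted p = 1.00).

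The dehydrogenases showed higher means in 5 of 7. Acadvl lay at 1.84, 1.69 and 2.14 on the Foxp3Cre arrays and 2.29, 1.98 and 1.98 on the Foxp3CreTgfbr2f/f arrays, with the largest difference of the group, 0.19 (standard error 0.18, 95% interval -0.23 to 0.60, limma adjusted p = 1.00). In each set of arrays the knockout lay above the control, by 0.21 and 0.15. Acadm lay at 2.37, 2.57 and 2.79 on the Foxp3Cre arrays and 2.99, 2.43 and 2.41 on the Foxp3CreTgfbr2f/f arrays (difference 0.03, standard error 0.21, 95% interval -0.47 to 0.53, limma adjusted p = 1.00) and Acadl at 2.53, 2.70 and 1.95 on the Foxp3Cre arrays and 2.11, 2.80 and 2.65 on the Foxp3CreTgfbr2f/f arrays (difference 0.13, standard error 0.26, 95% interval -0.49 to 0.75, limma adjusted p = 1.00). In Acadl the 2 higher-intensity arrays were the lowest of the 6.

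For the later steps, Echs1 lay at 1.52, 2.12 and 1.92 on the Foxp3Cre arrays and 1.91, 1.98 and 2.12 on the Foxp3CreTgfbr2f/f arrays (difference 0.15, standard error 0.19, 95% interval -0.28 to 0.59, limma adjusted p = 1.00), with 1 low control array. Hadha lay at 3.42, 3.29 and 3.88 on the Foxp3Cre arrays and 3.67, 3.38 and 3.44 on the Foxp3CreTgfbr2f/f arrays (difference -0.03, standard error 0.19, 95% interval -0.49 to 0.43, limma adjusted p = 1.00) and Hadh at 3.77, 3.46 and 3.76 on the Foxp3Cre arrays and 3.88, 3.60 and 3.41 on the Foxp3CreTgfbr2f/f arrays (difference -0.03, standard error 0.18, 95% interval -0.45 to 0.39, limma adjusted p = 1.00). Eci1, whose mean was lower in the Lkb1 comparison, had a higher mean here, at 2.52, 2.50 and 2.00 on the Foxp3Cre arrays and 1.91, 2.77 and 2.82 on the Foxp3CreTgfbr2f/f arrays (difference 0.16, standard error 0.28, 95% interval -0.51 to 0.83, limma adjusted p = 1.00). The test of the Lkb1 effect minus the Tgfbr2 effect gave -0.48 for Eci1 (standard error 0.43, limma adjusted p = 1.00).

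Ehhadh had the largest difference of the 32 genes in this comparison, -0.32 (standard error 0.25, 95% interval -0.91 to 0.28, limma adjusted p = 1.00), at 0.46, 0.12 and 0.60 on the Foxp3Cre arrays and 0.45, 0.18 and -0.40 on the Foxp3CreTgfbr2f/f arrays. Its lowest array was replicate 3 of the knockout, without which the difference was -0.08. Acox3 lay at 1.39, 1.42 and 2.05 on the Foxp3Cre arrays and 1.88, 1.66 and 1.66 on the Foxp3CreTgfbr2f/f arrays (difference 0.11, standard error 0.21, 95% interval -0.39 to 0.61, limma adjusted p = 1.00). Etfdh had the largest higher mean, 0.21 (standard error 0.14, 95% interval -0.12 to 0.54, limma adjusted p = 1.00), at 2.45, 2.24 and 2.23 on the Foxp3Cre arrays and 2.48, 2.62 and 2.44 on the Foxp3CreTgfbr2f/f arrays. All but 1 of its control arrays lay below the knockout arrays, in both sets the knockout was higher, by 0.19 and 0.25, and it stayed higher without any single array. Etfb lay at 3.87, 4.13 and 3.78 on the Foxp3Cre arrays and 3.66, 3.95 and 4.06 on the Foxp3CreTgfbr2f/f arrays (difference -0.04, standard error 0.17, 95% interval -0.44 to 0.36, limma adjusted p = 1.00).

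Acsl4 lay at 2.82, 2.81 and 2.65 on the Foxp3Cre arrays and 2.81, 2.83 and 2.91 on the Foxp3CreTgfbr2f/f arrays (difference 0.09, standard error 0.13, 95% interval -0.22 to 0.40, limma adjusted p = 1.00) and Acsl5 at 2.85, 2.86 and 2.94 on the Foxp3Cre arrays and 2.58, 2.83 and 3.07 on the Foxp3CreTgfbr2f/f arrays (difference -0.05, standard error 0.16, 95% interval -0.44 to 0.33, limma adjusted p = 1.00). Ppard lay at 1.74, 1.64 and 2.06 on the Foxp3Cre arrays and 2.23, 1.72 and 1.74 on the Foxp3CreTgfbr2f/f arrays (difference 0.09, standard error 0.20, 95% interval -0.38 to 0.56, limma adjusted p = 1.00). Ppargc1a lay at -1.81, -2.02 and -1.34 on the Foxp3Cre arrays and -1.76, -2.02 and -1.75 on the Foxp3CreTgfbr2f/f arrays (difference -0.12, standard error 0.21, 95% interval -0.61 to 0.37, limma adjusted p = 1.00), with its highest value on the higher-intensity control. The 15 genes not given by their arrays had differences between -0.12 (Ppargc1b) and 0.15 (Acads).

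Within the lower-intensity arrays of this comparison 10 of the 32 genes had a lower mean (median 0.05), against 45.2% of all genes and 41.8% of those above the array median. There 1 gene, Cpt1a, was lower without overlap, against 14.7% of all genes, and 4, Acadvl, Eci1, Acox3 and Acsl4, were higher, against 20.4%. Between the higher-intensity arrays 21 of the 32 were lower (median -0.03), against 55.1% of all genes.

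The knockout effects were set against each other in 1 fit over the 12 arrays, and the comparisons share no array. No member passed this test. limma called 0 of 41345 transcript clusters (0%), 406 (0.982%) had an unadjusted p under 0.05, and 0 of the 32 did. For Cpt1a the Lkb1 effect minus the Tgfbr2 effect was -0.34 (standard error 0.32, limma adjusted p = 1.00), with an interval from -1.04 to 0.37, so the Cpt1a differences of the knockouts were not shown to be unequal. Labelled sex and the rest of the animals' background differ between the 2 comparisons and cannot be told apart from the targeted gene.

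Across all 12 arrays the step between the intensity sets was larger than either genotype difference for 24 of the 32 genes. This count was not made over all genes, so it is not read as a trait of the oxidation genes. For 9 of the 32 all 4 higher-intensity arrays lay above all 8 lower-intensity arrays, against 14.7% of all genes, and for 0 they all lay below, against 11.7%. The 9 were Slc25a20, Acad9, Acad11, Hadha, Eci2, Acaa1a, Acox3, Ppard and Ppargc1b, with steps between 0.22 (Acad9) and 0.75 (Slc25a20). The mean was higher on the higher-intensity arrays for 24 of the 32, against 11961 of all 22180 genes. The median step was 0.29, against 0.04 over all genes. The median level of the 11844 genes above the array median was also higher on those arrays, at 1.74 to 1.80 against 1.35 to 1.70. The step was thus not limited to oxidation genes. Of the 32 genes, Etfa, Etfb and Acadl were among those with a lower mean on the higher-intensity arrays, by -0.26, -0.29 and -0.42. The genes also differed in how far they ranged over the 12 arrays, from 0.42 for Cpt1c to 1.44 for Eci2.

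**Figure D4:**
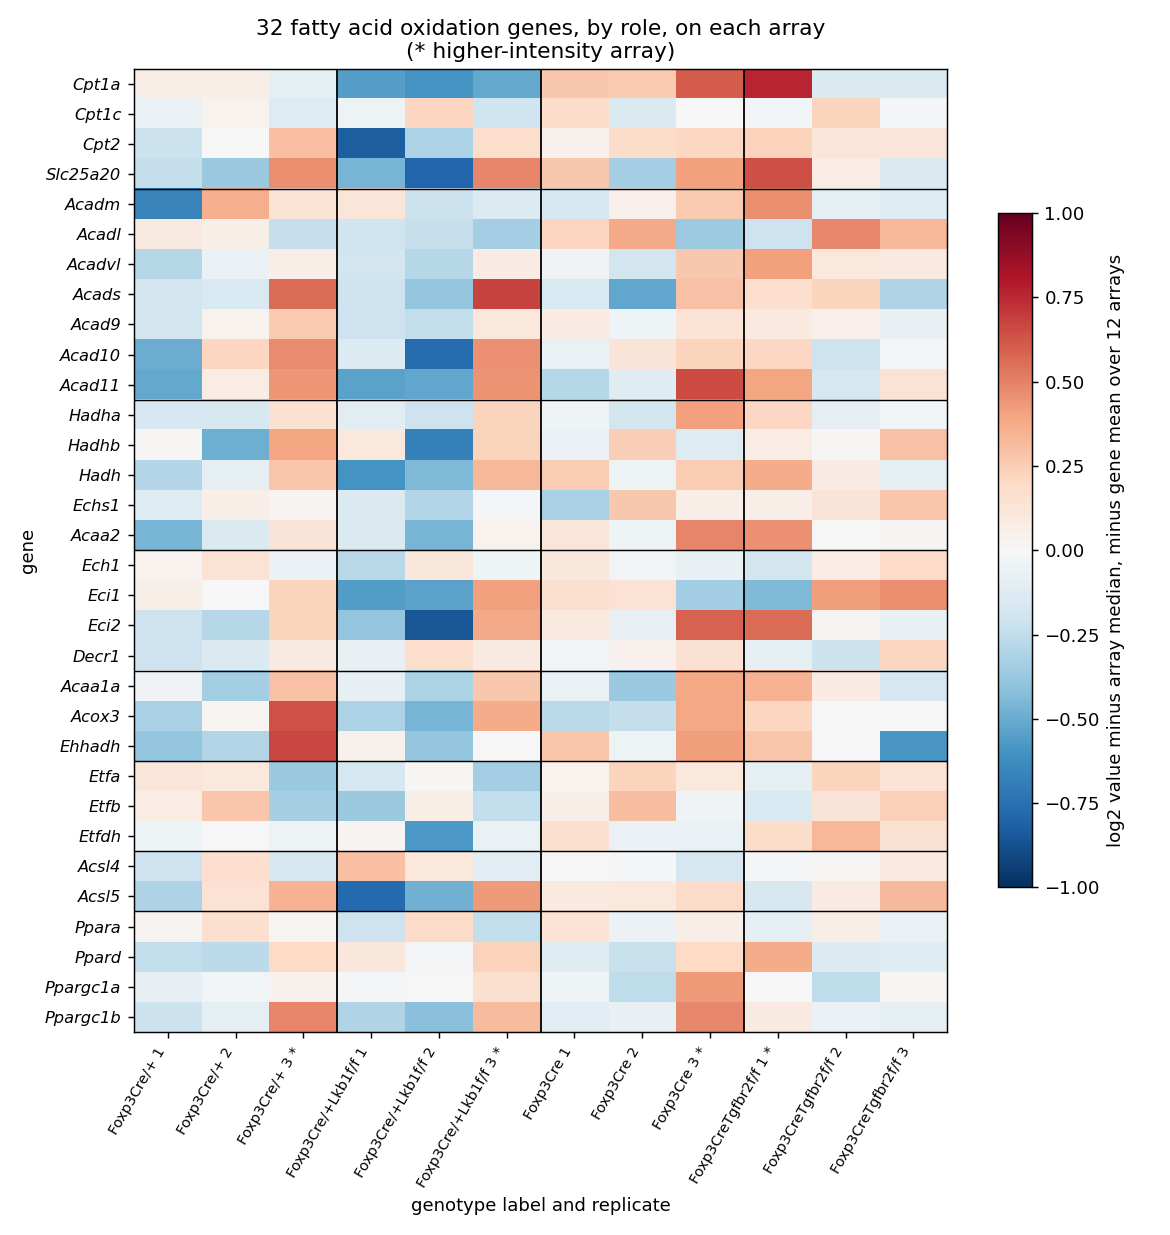
Log2 value minus array median, minus the mean of the gene over the 12 arrays (colour), for the 32 genes (rows, grouped by role) on each array (columns, by genotype label and replicate, with higher-intensity arrays marked by an asterisk). On the Foxp3Cre/+Lkb1f/f arrays 3 genes (Cpt1a, Acadl and Echs1) lie below their own mean on all 3 replicates and 16 on replicates 1 and 2 but not 3, and Slc25a20, Acad11, Eci2 and Acox3 are high on the higher-intensity arrays of every genotype.

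Other genes of the pathway, 42 of 47 listed with a transcript cluster, were described in the same way. In the Lkb1 comparison 33 of the 42 had a lower mean (78.6%, median -0.10), against 56.1% of all genes, and none passed the test. The groups did not overlap for 1 of the 42, a share near the 2.08% of all genes on the lower and 1.61% on the higher side. That gene was Acsbg1, an acyl-CoA synthetase for very long chains, at 1.98, 1.67 and 1.69 on the Foxp3Cre/+ arrays and 0.68, 1.28 and 1.47 on the Foxp3Cre/+Lkb1f/f arrays, a difference of -0.64 (standard error 0.25, limma adjusted p = 1.00). All 3 knockout values were below all 3 control values, and the difference was -0.85 within the lower-intensity and -0.22 between the higher-intensity arrays. Fabp4, a fatty acid binding protein, and the receptor gene Pparg had the largest lower means, -1.18 (standard error 0.84, limma adjusted p = 1.00) and -0.91 (standard error 0.67, limma adjusted p = 1.00). Both were highest on Foxp3Cre/+ replicate 2, at 1.87 and 1.31, the array where all 14 macrophage markers were highest. The part of those cells in these values was not tested. Of the malonyl-CoA switch, the carboxylase genes Acaca and Acacb and the decarboxylase gene Mlycd differed by -0.07, -0.07 and 0.11. The receptor gene Esrra differed by -0.11.

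In the Tgfbr2 comparison 21 of the 42 had a lower and 21 a higher mean (median 0.0006), against 48.2% of all genes lower. The groups did not overlap for 1 of the 42, on the higher side, a share near the 2.37% of all genes there. That gene was Crat, the carnitine acetyltransferase that buffers acetyl-CoA, at 0.94, 0.55 and 0.96 on the Foxp3Cre arrays and 1.14, 1.08 and 1.00 on the Foxp3CreTgfbr2f/f arrays, a difference of 0.26 (standard error 0.16, limma adjusted p = 1.00). Acsbg1 differed by -0.25 (standard error 0.15, limma adjusted p = 1.00) there, and its groups overlapped.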

How the data were processed

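RNA of CD4+YFP+ Treg cells from 12 samples was profiled on Affymetrix Mouse Genome 2.0 arrays. The authors analysed the arrays with Agilent GeneSpring GS 11 and deposited log2 values for 41345 transcript clusters, and their summarization and normalization are not stated in the sources at hand. Each array was centred on its own median, which takes out the overall offset between arrays but not gene-specific steps. Samples were grouped by their titles, which read LKB1 or Tgfbr2 with WT or KO and do not spell out the genotype names used here. Genes were named from the platform annotation (23521 transcript clusters with 1 symbol, 1820 with several and 16004 with none), and for a gene with several the one with the highest mean was used. Each knockout was compared with its control in limma 3.58.1 (R 4.3.3; lmFit and eBayes, 3 against 3 arrays, no covariate), the p-values were adjusted by Benjamini-Hochberg over every transcript cluster (threshold 0.05), and the difference between the effects was a contrast over 12 arrays. Fold counts used 1.5. The fit was also run on simulated data, and no result of that run is used here.

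The members and lists were chosen with earlier results of these data known, so lists were described by counts beside those of all genes and not tested. Per-array values were given for 17 genes: those without overlap or with an unadjusted p under 0.05, the largest difference of each role group, and Cpt1a, Cpt2, Acadm and Hadha. Same-numbered Lkb1 arrays deviated together (r = 0.39, 0.30 and 0.74 on centred values), which meets the rule for pairs, although replicate 1 of the control correlated more with replicate 2 of the knockout (0.45), and the pair with 0.74 is the higher-intensity one. The block changed no call. Alternatives were values as deposited, quantile normalization, replicate and intensity-set blocks, fits within the lower-intensity arrays and over 12 arrays, array weights, a robust prior with trend, a level filter, an unpaired test and leaving out each array. All deposited columns were used.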

Additional observations from a re-analysis of the deposited data

Results flagged for a closer look

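Signals of sex-linked genes, which no comparison here uses, stood above the array median where the labelled sex does not provide them. The Y-linked gene Eif2s3y lay 3.11 above the median on the array labelled Foxp3Cre/+ replicate 3 and 3.00 above it on the array labelled Foxp3Cre/+Lkb1f/f replicate 3, both labelled female, against -1.88 to -1.68 on the other 4 arrays labelled female. The heterozygous Foxp3Cre/+ genotype belongs to females, so both replicate 3 arrays do not match their named genotype. Xist lay 4.54 above the median on the array labelled Foxp3Cre replicate 3 and 4.70 above it on the array labelled Foxp3CreTgfbr2f/f replicate 1, both labelled male, against -0.93 to -0.40 on the other 4 arrays labelled male. With 3 arrays per genotype no array was tested as an outlier for any oxidation gene.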

How the results depend on the processing

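The number of arrays, 3 per genotype, and the step between the intensity sets limit every value. The calls were 0 in each comparison under each of 16, 16 and 18 alternatives for the Lkb1 effect, the Tgfbr2 effect and their difference, with 98 to 3463, 130 to 2227 and 65 to 2076 transcript clusters at an unadjusted p under 0.05. The replicate block called 0 in all 3 and changed no call. The Tgfbr2 replicates share only a number, as same-numbered arrays had r of -0.52, 0.23 and -0.57, and the block moved the unadjusted count there from 706 to 495. The fit of the difference within the lower-intensity arrays was added after the data were seen, and there Eci1 had -0.87 (standard error 0.18, limma adjusted p = 0.565). The count of the 32 genes with a lower mean in the Lkb1 comparison, 26, was 16 between the higher-intensity arrays and 15 to 27 with 1 array left out (15 without Foxp3Cre/+ replicate 3, 16 without Foxp3Cre/+Lkb1f/f replicate 2), and its other alternatives gave 21 to 26. The median difference in that comparison, -0.15, was 0.0086 without Foxp3Cre/+ replicate 3. In the Tgfbr2 comparison the count was 15 and ran from 10 to 21, and the median, 0.02, ran from -0.05 to 0.05. Taking the row with the largest spread or the mean of all rows changed nothing, as each gene has 1 row.

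Of the 34 differences given with their arrays, 11 kept their direction under all alternatives run for them, Cpt1a in the Lkb1 comparison among them, and no difference passed the test under any that gives one. For Cpt1a in that comparison the groups do not overlap, so leaving out an array or taking 1 intensity set could not change its sign. The replicate and intensity-set blocks left its difference at -0.5624. The other 23 differences changed sign under at least 1 alternative, all of them within their intervals, and the cause was not tested. With the values as deposited these were Acadm 0.0116 (Lkb1) and Acadvl 0.0031 (Lkb1). With quantile normalization they were Acadm 0.0402 (Lkb1), Acadvl 0.0379 (Lkb1), Cpt2 -0.023 (Tgfbr2) and Acadm -0.0126 (Tgfbr2). With array weights they were Ehhadh 0.1692 (Lkb1), Acadm -0.022 (Tgfbr2), Hadha 0.0192 (Tgfbr2), Etfb 0.0197 (Tgfbr2) and Acsl5 0.0786 (Tgfbr2). Values within the intensity sets were added after the data were seen. Within the lower-intensity arrays the changes of sign were Acadm 0.1027 (Lkb1), Ehhadh 0.1647 (Lkb1), Acadm -0.053 (Tgfbr2), Hadha 0.0525 (Tgfbr2), Etfb 0.0008 (Tgfbr2), Acsl5 0.0991 (Tgfbr2) and Ppargc1a 0.0318 (Tgfbr2). Between the higher-intensity arrays, 1 against 1 with no test, they were Acadvl 0.01792 (Lkb1), Hadh 0.05177 (Lkb1), Eci1 0.1907 (Lkb1), Etfb 0.08433 (Lkb1), Acsl5 0.07245 (Lkb1), Cpt1a 0.1538 (Tgfbr2), Hadh 0.1166 (Tgfbr2), Echs1 -0.00199 (Tgfbr2), Eci1 -0.08962 (Tgfbr2) and Acox3 -0.1746 (Tgfbr2). With 1 array left out, which also leaves unequal shares of the intensity sets, the ranges that crossed 0 in the Lkb1 comparison were those of Acadm (-0.3309 to 0.1869), Acadvl (-0.1372 to 0.0487), Hadha (-0.1016 to 0.1326), Acox3 (-0.4999 to 0.0154), Ehhadh (-0.3038 to 0.2242) and Etfdh (-0.2906 to 0.0078). In the Tgfbr2 comparison they were those of Cpt2 (-0.0344 to 0.0478), Acadm (-0.1593 to 0.138), Acadl (-0.0933 to 0.3296), Hadha (-0.1554 to 0.1411), Hadh (-0.1579 to 0.0765), Echs1 (-0.0109 to 0.2876), Eci1 (-0.0076 to 0.455), Acox3 (-0.0048 to 0.3249), Etfb (-0.1222 to 0.0749), Acsl5 (-0.172 to 0.0702), Ppard (-0.078 to 0.2102) and Ppargc1a (-0.2678 to 0.0723).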
